A study of Mus musculus with 203 samples.

Results

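The genes described here are 7 members of the CXCR3 axis and its interferon gamma arm: *Ifng*, *Cxcl9*, *Cxcl10*, *Cxcr3*, *Il12rb1*, *Tbx21* and *Acod1*. They were named by symbol, without a threshold on any measured value but with earlier results of these data known. Counts of members or listed genes called, set beside the shares of all genes, are thus descriptive only. All 7 were found among the 43346 gene identifiers of the count table. They were measured by bulk RNA-seq in 43 libraries at 3 weeks and 160 at 11 weeks from female Balb/C mice aged 18-20 weeks, whose lungs had been separated into airway and parenchyma by blunt dissection. At 3 weeks the groups were PBS, the vehicle, and HDM, an intranasal house dust mite extract. At 11 weeks the mice carried on with PBS or HDM and breathed normal air (AIR) or cigarette smoke (CS), each with or without the corticosteroid dexamethasone (DEX) in the last week. HDM was thus given in every HDM group at both times, and no group received smoke or dexamethasone at 3 weeks. There were 10 libraries in each of the 20 groups of week, tissue and exposure, except for 11 in the PBS airway and 12 in the PBS parenchyma at 3 weeks.

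Interferon gamma, encoded by *Ifng*, is made by T helper 1 cells, cytotoxic T cells and natural killer (NK) cells, and acts through its receptor on the cells around them. Among the genes it induces are *Cxcl9* and *Cxcl10*, which encode chemokines for cells that carry the receptor CXCR3, so that cells producing interferon gamma are drawn towards tissue that responds to it. T-bet, encoded by *Tbx21*, drives interferon gamma production, *Il12rb1* encodes a receptor chain shared by interleukin 12 and interleukin 23, and *Acod1* encodes the enzyme that makes itaconate in activated macrophages. House dust mite allergy is best known for its type 2 arm, to which this axis is usually contrasted.

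*Cxcl9* and *Cxcl10* are neighbours on the minus strand of chromosome 5 (GRCm38), at chr5:92321347-92328079 and chr5:92346638-92348889. *Ifng* lies at chr10:118441046-118445892, *Tbx21* at chr11:97098071-97115331, *Acod1* at chr14:103046977-103056573, *Il12rb1* at chr8:70808449-70821424 and *Cxcr3* at chrX:101731535-101734269. RefSeq promoter windows of 300 bases on GRCm38.p6, with 250 bases before and 50 after the gene start, were matched for 6 of the 7 members, all except *Il12rb1*. The windows of the 2 ligands and of *Acod1*, the genes that responded most, and of *Ifng* itself are shown 5′ to 3′ on the strand of the gene. Capitals mark matches to the interferon-stimulated response element (ISRE), the gamma-activated site (GAS) TTCNNNGAA, the NF-kappaB consensus or the T-box core TCACACC, searched on both strands.

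Cxcl9: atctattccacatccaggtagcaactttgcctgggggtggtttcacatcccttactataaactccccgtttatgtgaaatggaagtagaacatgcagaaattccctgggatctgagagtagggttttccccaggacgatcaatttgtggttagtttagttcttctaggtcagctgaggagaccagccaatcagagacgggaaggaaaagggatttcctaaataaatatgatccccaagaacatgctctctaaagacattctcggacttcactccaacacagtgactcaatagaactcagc
Cxcl10: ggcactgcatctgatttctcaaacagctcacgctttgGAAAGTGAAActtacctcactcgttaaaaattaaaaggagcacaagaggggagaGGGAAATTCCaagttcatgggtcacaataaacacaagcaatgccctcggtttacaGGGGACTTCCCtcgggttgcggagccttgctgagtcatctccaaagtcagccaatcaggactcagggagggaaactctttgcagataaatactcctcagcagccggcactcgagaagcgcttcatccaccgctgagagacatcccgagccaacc
Acod1: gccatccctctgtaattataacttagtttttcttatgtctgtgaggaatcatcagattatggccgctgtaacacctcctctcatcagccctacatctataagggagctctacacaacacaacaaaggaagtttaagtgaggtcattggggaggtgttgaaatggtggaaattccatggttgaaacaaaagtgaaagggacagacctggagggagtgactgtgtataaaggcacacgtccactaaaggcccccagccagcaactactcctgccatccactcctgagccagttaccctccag
Ifng: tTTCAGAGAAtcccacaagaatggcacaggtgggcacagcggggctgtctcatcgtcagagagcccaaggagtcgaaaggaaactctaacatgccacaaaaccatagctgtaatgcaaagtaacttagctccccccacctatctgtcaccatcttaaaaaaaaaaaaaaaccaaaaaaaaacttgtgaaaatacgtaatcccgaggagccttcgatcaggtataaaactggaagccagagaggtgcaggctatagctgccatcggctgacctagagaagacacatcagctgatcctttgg

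The window of *Cxcl10*, at chr5:92348840-92349139, held an ISRE match GAAAGTGAAA starting 213 bases before the gene start and NF-kappaB matches at 3 places nearer to the start, 2 of which overlapped. The window of *Ifng*, at chr10:118440796-118441095, held a GAS match TTCAGAGAA at its far end, 249 bases before the start. No match was found in the windows of *Cxcl9* (chr5:92328030-92328329), *Acod1* (chr14:103046762-103047061), *Tbx21* or *Cxcr3*, which says only that these letters do not occur there. Among all 32851 windows, 3.44% held the ISRE, 8.30% the GAS, 8.46% the NF-kappaB consensus and 3.98% the T-box core.

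Total counts ranged from 13003154 to 40240733 per library, with medians of 26505063 at 3 weeks and 28357046 at 11 weeks. Levels are given as counts-per-million (CPM) scaled by TMM, a normalization of library composition. The dissection was checked on tissue markers: the basal cell keratin *Krt5* had a median of 14.8 CPM in the airway libraries and 0.289 CPM in the parenchyma libraries, while the alveolar gene *Sftpc* had 8388 and 14030 CPM, so the airway samples still held alveolar RNA. The median sum of 7 airway tissue markers in airway libraries was 614.2 CPM in PBS and 480.6 CPM in HDM at 3 weeks. At 11 weeks it was 939.9 CPM in PBS.AIR and 390.2 CPM in HDM.AIR. The part of this difference in the airway results was not tested. The profiles of 10 libraries correlated better with the mean of another group than with their own, and 3 did so by more than 0.01 in r, all airway and all at 11 weeks. Library X109, labelled HDM.AIR, resembled parenchyma (r = 0.972 with the mean of HDM.AIR parenchyma and 0.924 with its own group), X11, labelled HDM.AIR.DEX, resembled HDM.AIR, and X133, labelled PBS.CS, resembled PBS.CS.DEX. Results that changed without these 3 libraries are given with both values. Library X103, HDM airway at 3 weeks, was also closer to HDM parenchyma (r = 0.967) than to its own group (0.962), by less than that margin. It was kept in every fit, and had the highest *Ifng*, *Cxcl9*, *Cxcl10*, *Acod1*, *Tbx21* and *Il12rb1* of its group. In bulk tissue, fewer cells of a type and less RNA per cell cannot be told apart.

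At 3 weeks HDM raised the whole axis in both tissues. All 7 members passed an adjusted p-value of 0.05 in each tissue, and 5 in the airway and 6 in the parenchyma were also at least 2-fold higher (limma-voom, Benjamini-Hochberg adjustment over all genes tested). Of the 17381 genes tested, 34.1% in the airway and 33.4% in the parenchyma were higher past the adjusted p, and 12.1% and 14.5% were called higher by both criteria.

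*Ifng* itself was low in PBS mice and higher under HDM. In the airway it ran from 0.216 to 0.976 CPM (median 0.513, n = 11) under PBS and from 1.59 to 9.17 CPM (median 3.61, n = 10) under HDM. In the parenchyma it ran from 0.462 to 1.24 CPM (median 0.691, n = 12) and from 2.43 to 10.0 CPM (median 6.53, n = 10). The PBS and HDM libraries did not overlap in either tissue. The log2 fold change (log2FC) was 2.77 ± 0.37 (SE) for airway libraries and 2.91 ± 0.34 for parenchyma libraries, with adjusted p-values of 8.8e-09 and 3.3e-10 (limma-voom).

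The CXCR3 ligands had larger fold changes than the cytokine. *Cxcl9* went from 1.80 to 24.9 CPM (median 3.86) under PBS to 50.6 to 575 CPM (median 231) under HDM in the airway, and from 1.67 to 5.66 CPM (median 2.38) to 75.1 to 1062 CPM (median 395) in the parenchyma. Every HDM library lay above every PBS library of its tissue. The log2FC was 5.31 ± 0.50 (adjusted p = 1.7e-12) and 7.25 ± 0.64 (adjusted p = 1.8e-13). *Cxcl10* showed the same separation, with airway medians of 1.47 and 31.1 CPM (log2FC 4.29 ± 0.60, adjusted p = 3.1e-08) and parenchyma medians of 1.04 and 64.3 CPM (log2FC 5.77 ± 0.70, adjusted p = 9.4e-10). Of a list of 3 other genes for CXCR3 ligands and their processing, *Cxcl11*, *Pf4* and *Dpp4*, 2 were called higher in each tissue, *Cxcl11* most (airway log2FC 5.79 ± 0.96, parenchyma 6.95 ± 1.03). *Dpp4*, a peptidase that cuts these chemokines, was called lower in the parenchyma (-1.51 ± 0.13).

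*Acod1* had a fold change near that of *Cxcl9*. Its median was 2.23 CPM under PBS and 141.5 CPM under HDM in the airway (log2FC 5.78 ± 0.48, adjusted p = 6.1e-14), and 1.84 and 299 CPM in the parenchyma (log2FC 7.19 ± 0.54, adjusted p = 1.2e-15). The lowest HDM library, at 36.5 CPM for airway and 141.8 CPM for parenchyma, was above the highest PBS library, at 7.38 and 4.07 CPM.

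*Cxcr3*, *Il12rb1* and *Tbx21* had smaller fold changes than the other members. *Cxcr3* went from a median of 4.31 to 8.03 CPM in the airway (log2FC 0.85 ± 0.15, adjusted p = 2.6e-06) and from 3.00 to 8.50 CPM in the parenchyma (log2FC 1.38 ± 0.17, adjusted p = 1.2e-09). The parenchyma groups did not overlap. The airway groups overlapped through PBS library X161 alone, at 8.53 CPM. The next PBS library was at 5.44 CPM and the lowest HDM library at 5.50 CPM. *Il12rb1* rose in both tissues without overlap (log2FC 1.74 ± 0.21 and 2.18 ± 0.23). *Tbx21* had the smallest log2FC of the 7, 0.72 ± 0.17 for airway (adjusted p = 0.0002) and 0.40 ± 0.15 for parenchyma (adjusted p = 0.016), and its groups overlapped in both.

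**Figure D1:**
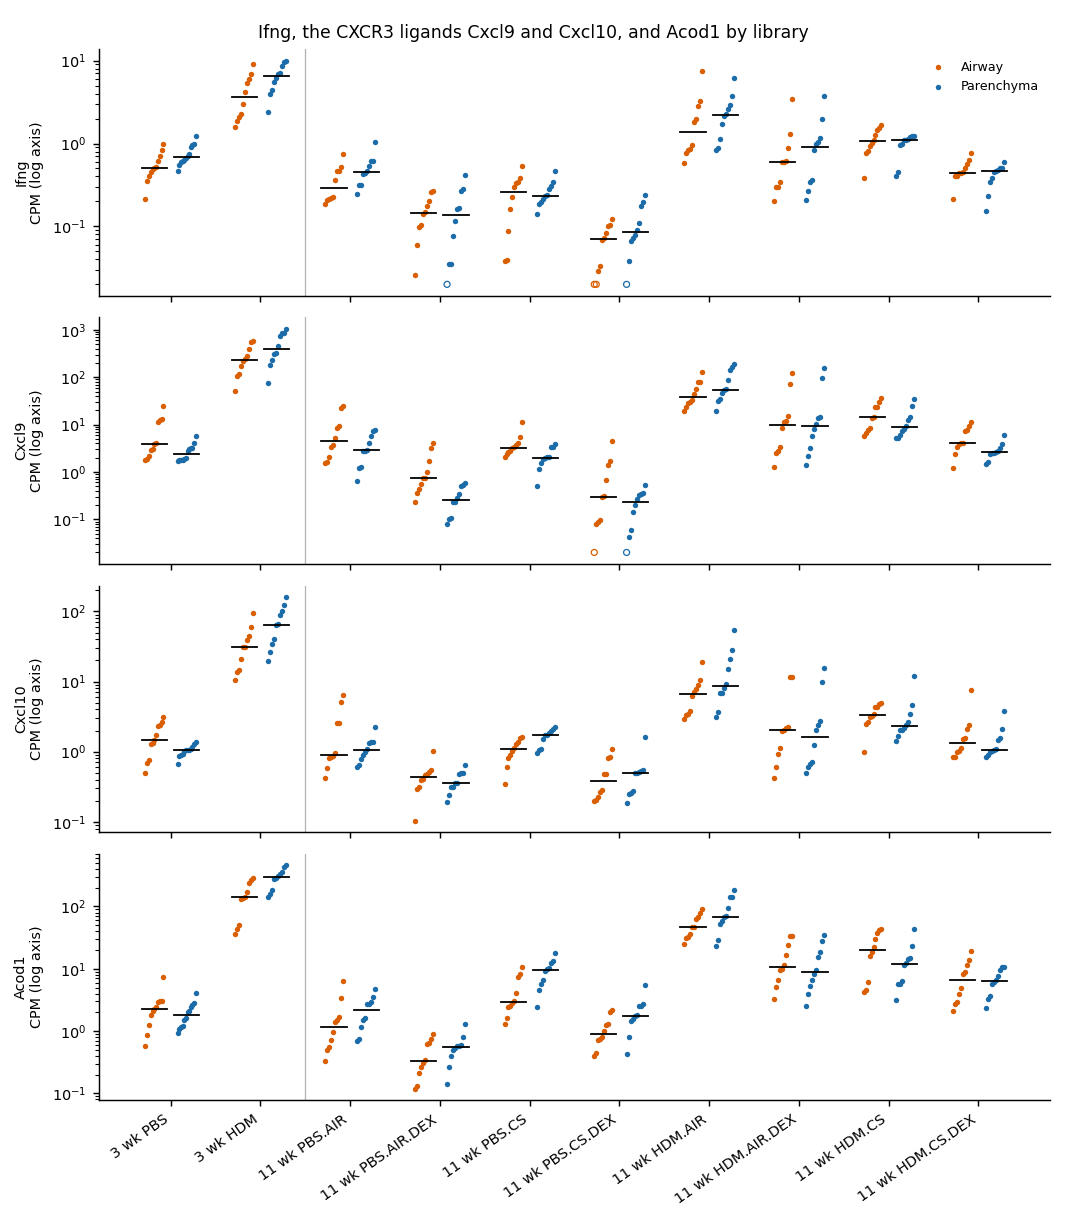
CPM (log axis) of *Ifng*, *Cxcl9*, *Cxcl10* and *Acod1* in each library of the 20 groups, airway in orange and parenchyma in blue, with the group median as a black line and values under 0.02 CPM as open circles at 0.02. HDM groups at 3 weeks are the highest for all 4 genes, with *Cxcl9* medians of 231 and 395 CPM, and the lowest group median of each gene lies in a dexamethasone group without HDM.

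Most interferon gamma target genes rose as well, and other genes of the pathway did so in part. Of 22 interferon gamma target genes tested, from a list of 24, 20 were called higher in the airway and all 22 in the parenchyma, with medians of 2.01 and 2.39 on the log2 scale, against -0.07 and -0.13 for all genes tested. The guanylate-binding protein gene *Gbp2* rose by 2.11 ± 0.18 and 2.66 ± 0.18, and *Ido1*, a tryptophan-degrading enzyme, by 3.27 ± 0.47 and 3.44 ± 0.43. Of 8 receptor and signalling genes, 5 and 6 were called higher. The receptor gene *Ifngr1* had a log2FC of -0.18 ± 0.06 in each tissue (adjusted p = 0.0056 and 0.0032). In the interleukin 12 and 18 family 6 of 14 genes were called higher in each tissue and 1, *Il18*, lower. *Il12b*, the shared p40 subunit, rose by 2.33 ± 0.31 and 4.34 ± 0.40, and *Il12rb2*, the partner chain of *Il12rb1*, by 1.38 ± 0.23 and 1.62 ± 0.21.

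Markers of the cells that could carry these transcripts moved as well. The summed level of 8 T cell markers went from 55.9 to 218 CPM under PBS to 144.4 to 349 CPM under HDM in the airway, and from 75.7 to 125.2 CPM to 183.7 to 405 CPM in the parenchyma, with 6 of 8 called higher in each tissue. The PBS airway library with the highest *Cxcl9*, X161 at 24.9 CPM, was also the one with the highest T cell sum. It had the highest sum of 5 B cell markers too, 404 CPM against a group median of 164.5 CPM. All 7 neutrophil markers were called higher in both tissues, as were 4 of 8 macrophage markers in the airway, with 1 lower, and 5 of 8 in the parenchyma. Of the 6 NK cell markers, 1 was higher and 2 were lower past the adjusted p in the airway, and 4 were lower in the parenchyma. Their sum was 53.1 to 159.8 CPM under PBS and 43.7 to 126.4 CPM under HDM in the airway, and 189.5 to 253 against 108.3 to 203.7 CPM in the parenchyma. The part of these cells in the rise of the members was not tested.

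Between airway and parenchyma few members differed before HDM. In PBS mice at 3 weeks no member was called by limma-voom, where 10.0% of genes were called higher and 1.91% lower in the airway. *Cxcl9* was called higher in the airway by edgeR (adjusted p = 0.0054) and DESeq2 (log2FC 1.52, adjusted p = 0.0013). By limma-voom *Cxcr3* was higher in the airway past the adjusted p (log2FC 0.57 ± 0.18, adjusted p = 0.0057) and *Tbx21* lower (log2FC -0.78 ± 0.17, adjusted p = 0.00012), and both recurred in PBS.AIR mice at 11 weeks (13.4% of genes called higher and 2.71% lower), at 0.46 ± 0.20 (adjusted p = 0.040) and -0.86 ± 0.20 (adjusted p = 0.00016). Of 5 lymph node stroma markers 2 were called higher in the airway at each time, with median sums of 170.3 CPM against 78.9 CPM in the parenchyma at 3 weeks and 258 against 71.6 CPM at 11 weeks, and up to 899 CPM in airway library X81 and 1463 CPM in X65. NK cell markers stood beside *Tbx21*: all 6 were lower in the airway past the adjusted p at both times. The part of these cells was not tested. In HDM mice at 3 weeks *Acod1* was called lower in the airway (log2FC -1.15 ± 0.28, adjusted p = 0.0012), where 0.610% of genes were. *Cxcl10* (-0.98 ± 0.30, adjusted p = 0.0090), *Ifng* (-0.65 ± 0.23, adjusted p = 0.025) and *Tbx21* (-0.46 ± 0.15, adjusted p = 0.015) were also lower past the adjusted p alone, and *Ifng* had adjusted p-values of 0.074 in edgeR and 0.057 in DESeq2. The shares of genes given for these tissue contrasts are for the stricter call, and those past the adjusted p alone are not given. *Cxcl9* passed with quality weights (log2FC -1.04, adjusted p = 0.015) and under a filter of 10 CPM (-0.88, adjusted p = 0.046), but not otherwise. The HDM effect itself did not pass a test of difference between tissues for any member at 3 weeks by limma-voom (0.547% of genes called higher and 1.67% lower). At an unadjusted p under 0.05 there were 2 members, *Cxcl9* and *Cxcr3*, and edgeR and DESeq2 each called 3. The *Cxcl9* difference of -1.93 had a 95% interval from -3.58 to -0.29.

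At 11 weeks of HDM in mice breathing air every member but *Tbx21* was called higher, and the HDM effect on both ligands was smaller than at 3 weeks. In each tissue 6 of 7 members were called higher, where 10.6% of 18250 genes were in the airway and 13.0% in the parenchyma. The 11-week comparisons share libraries, since HDM.AIR also served as the control for smoke and for dexamethasone, so their values are given side by side only.

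*Cxcl9* ran from 1.52 to 24.3 CPM (median 4.55) in PBS.AIR airway and from 19.1 to 129.3 CPM (median 38.7) in HDM.AIR airway, and from 0.640 to 7.81 CPM (median 2.89) and 19.8 to 186.7 CPM (median 54.5) in the parenchyma. The highest HDM.AIR airway library was X109, which resembled parenchyma, and the next had 81.2 CPM. X109 was also the highest of that group for *Ifng*, *Cxcl10*, *Tbx21* and *Il12rb1*. Only the parenchyma groups were free of overlap. The log2FC was 3.14 ± 0.49 (adjusted p = 8.5e-09) and 4.56 ± 0.60 (adjusted p = 2.2e-11). For *Cxcl10* it was 2.19 ± 0.43 and 3.39 ± 0.46.

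Tested as a difference, the HDM effect on *Cxcl9* was smaller at 11 than at 3 weeks, with differences of -2.23 ± 0.70 log2 units for airway (adjusted p = 0.0098) and -2.80 ± 0.88 for parenchyma (adjusted p = 0.0061). For *Cxcl10* the differences were -2.14 ± 0.67 and -2.50 ± 0.74 (adjusted p = 0.0089 and 0.0035). *Tbx21* had a smaller HDM effect in the parenchyma past the adjusted p alone (-0.83 ± 0.25, adjusted p = 0.0045). *Acod1* also had a smaller effect in the parenchyma (-2.01 ± 0.80, adjusted p = 0.032), but in the airway its difference was -0.47 with a 95% interval from -2.05 to 1.11. Thus 2 members in the airway and 3 in the parenchyma were called lower, against 3.02% and 4.06% of 18528 genes. The differences for *Ifng* were -0.57 (interval -1.58 to 0.45) and -0.88 (-1.82 to 0.07), and those for *Cxcr3* 0.21 (-0.23 to 0.66) and -0.07 (-0.57 to 0.43). Week, the calendar of the experiment and the labelled inhaled exposure (none at 3 weeks, AIR at 11 weeks) cannot be told apart in this contrast. Among the target genes, 13 of 22 in the airway and 17 of 22 in the parenchyma had a smaller HDM effect at 11 weeks, with medians of -1.08 and -1.46 against 0.01 and 0.05 for all genes.

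*Ifng* at 11 weeks had airway medians of 0.293 and 1.40 CPM (log2FC 2.25 ± 0.38, adjusted p = 9.5e-08) and parenchyma medians of 0.454 and 2.20 CPM (log2FC 2.16 ± 0.35, adjusted p = 3.9e-08), with overlap in both. *Il12rb1* rose by 1.91 ± 0.20 and 1.89 ± 0.21 without overlap, and *Cxcr3* by 1.11 ± 0.17 and 1.43 ± 0.19. *Acod1* rose most of the 7 at 11 weeks, from 1.18 to 47.6 CPM in the airway (log2FC 5.38 ± 0.62) and from 2.14 to 68.9 CPM in the parenchyma (log2FC 5.30 ± 0.56), without overlap in either.

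*Tbx21* was the member not called in either tissue. Its level was 1.504 to 4.04 CPM (median 3.00) in PBS.AIR airway and 2.34 to 5.50 CPM (median 3.29) in HDM.AIR airway. In the parenchyma it was 3.29 to 7.61 CPM (median 4.84) and 2.38 to 5.41 CPM (median 4.03). The log2FC was 0.48 ± 0.21 for airway (adjusted p = 0.045) and -0.30 ± 0.19 for parenchyma (adjusted p = 0.17). The airway value did not hold under most alternatives, with an adjusted p of 0.099 without library X109, 0.11 in edgeR, 0.12 in DESeq2 and 0.40 with library quality weights, where the log2FC was 0.22. The difference between the tissues was 0.78 ± 0.29 (adjusted p = 0.032), which was 0.71 with an adjusted p of 0.058 without X109. The airway tissue marker sum in the airway was lower in HDM.AIR than in PBS.AIR (medians 390.2 and 939.9 CPM), and its part in these values was not tested. No other member differed between tissues past the adjusted p in limma-voom, and none was called, where 0.504% of genes were called higher and 7.47% lower. NK cell markers in the parenchyma had 5 of 6 lower past the adjusted p, with summed levels of 100.2 to 238 CPM in PBS.AIR and 47.6 to 103.4 CPM in HDM.AIR, and their part in it was not tested.

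**Figure D2:**
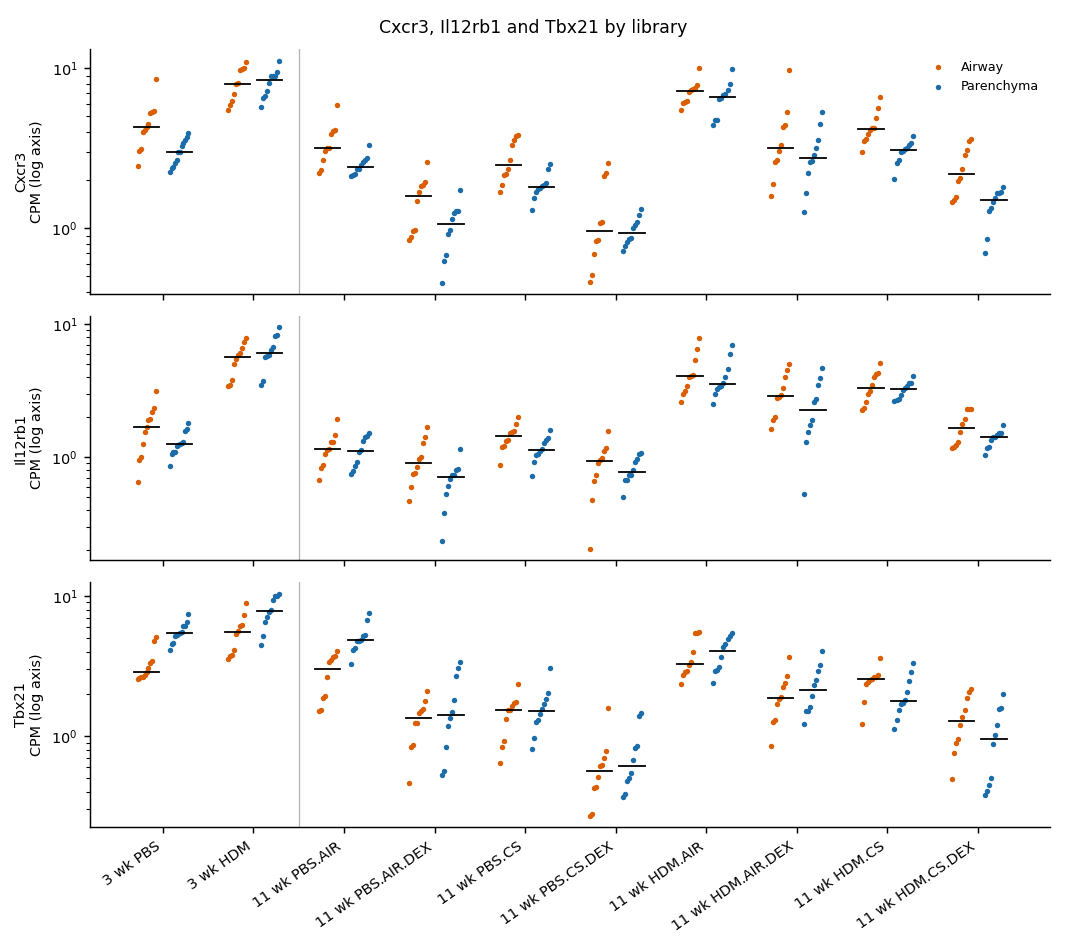
CPM (log axis) of *Cxcr3*, *Il12rb1* and *Tbx21* in each library of the 20 groups, airway in orange and parenchyma in blue, with the group median as a black line. *Il12rb1* and *Cxcr3* are higher in HDM than in PBS groups, whereas *Tbx21* in the parenchyma at 11 weeks has a median of 4.84 CPM in PBS.AIR and 4.03 CPM in HDM.AIR.

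Cigarette smoke in PBS mice lowered *Tbx21* in both tissues and raised *Acod1* in the parenchyma. No member was called in the airway (1.73% of genes were called higher and 1.06% lower) and 2 in the parenchyma, 1 in each direction (4.21% and 1.12%). By limma-voom *Tbx21* was lower, by -0.98 ± 0.25 on the log2 scale for airway (adjusted p = 0.0028) and by -1.67 ± 0.24 for parenchyma (adjusted p = 2.2e-09). The parenchyma libraries fell from 3.29 to 7.61 CPM (median 4.84) to 0.812 to 3.06 CPM (median 1.51) without overlap. *Acod1* was higher, from 0.704 to 4.75 CPM (median 2.14) to 2.47 to 17.8 CPM (median 9.57) in the parenchyma (log2FC 2.11 ± 0.61, adjusted p = 0.0035). In the airway its log2FC was 1.57 ± 0.71 (adjusted p = 0.14 in limma-voom and 0.025 in edgeR).

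Few neighbouring genes passed the test in this comparison. None of the 22 target genes was called in the airway (2 passed the adjusted p alone, both lower) and 1 was called lower in the parenchyma. *Il12b* was higher by 2.21 ± 0.29 and 2.28 ± 0.34, while *Eomes*, the T-box relative of *Tbx21*, was lower by -1.59 ± 0.32 in the parenchyma (adjusted p = 2.3e-05). NK cell markers fell with *Tbx21*: 3 of 6 were called lower in the airway and 5 of 6 in the parenchyma, where their sum was 100.2 to 238 CPM in air and 19.8 to 72.8 CPM in smoke. Of the 8 T cell markers 0 passed the adjusted p in either tissue, with medians of 0.43 and 0.06 on the log2 scale. Macrophage markers stood beside *Acod1*, with 2 of 8 and 4 of 8 called higher and a parenchymal sum of 520 to 843 CPM in air and 1156 to 1577 CPM in smoke. So did neutrophil markers: the median sum of the 7 was 108.6 CPM in air and 293.3 CPM in smoke for airway. For parenchyma it was 237.1 and 562.2 CPM, and the sums overlapped in both tissues. The part of these cells was not tested.

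In HDM mice smoke lowered most members in the parenchyma and fewer in the airway. In the parenchyma 6 of 7 members were called lower, where 3.46% of genes were, and in the airway 2 of 7, where 1.96% were. Past the adjusted p alone 5 of 7 were lower in the airway, as were 10.1% of genes. *Cxcl9* in the parenchyma went from 19.8 to 186.7 CPM (median 54.5) in air to 5.10 to 34.9 CPM (median 8.71) in smoke (log2FC -2.66 ± 0.42, adjusted p = 1.9e-07), and *Cxcl10* from a median of 8.54 to 2.28 CPM (log2FC -1.98 ± 0.35). *Cxcr3* was the member whose groups did not overlap, at 4.42 to 9.89 CPM in air and 2.02 to 3.75 CPM in smoke (log2FC -1.12 ± 0.18, adjusted p = 2.3e-07). *Ifng* had a log2FC of -1.18 ± 0.30 (adjusted p = 0.0016) and *Tbx21* of -1.02 ± 0.23 (adjusted p = 0.00026). *Il12rb1* had a log2FC of -0.31 with a 95% interval from -0.65 to 0.02.

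In the airway, *Cxcl9* had a log2FC of -1.67 ± 0.38 (adjusted p = 0.00054) and *Acod1* of -1.56 ± 0.30 (adjusted p = 5.4e-05). *Cxcr3* (-0.76 ± 0.16), *Tbx21* (-0.63 ± 0.21) and *Cxcl10* (adjusted p = 0.037) passed the adjusted p alone, and without library X109 the last 2 had adjusted p-values of 0.067 (log2FC -0.56) and 0.11 (log2FC -0.82) in limma-voom. The log2FC of *Ifng* was -0.65 (interval -1.24 to -0.05, adjusted p = 0.13), and -0.99 in edgeR and DESeq2, with adjusted p-values of 0.043 and 0.05. Target genes were lower in 4 of 22 calls in the airway and 11 of 22 in the parenchyma, with medians of -0.72 and -0.98 against -0.01 for all genes in each tissue. T cell markers were called lower in 0 of 8 and 2 of 8 (4 and 7 of 8 past the adjusted p alone), and their parenchymal sum was 137.4 to 291 CPM in air and 109.9 to 141.8 CPM in smoke. Their part in the fall of the members was not tested.

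The response of *Acod1* to smoke turned with the allergen. In the parenchyma its median went from 2.14 to 9.57 CPM with smoke in PBS mice and from 68.9 to 12.0 CPM with smoke in HDM mice (log2FC -2.74 ± 0.34, adjusted p = 1.8e-10). The interaction was -4.85 ± 0.70 log2 units (adjusted p = 4.6e-09) in the parenchyma and -3.13 ± 0.77 (adjusted p = 0.0016) in the airway. With smoke in both groups, HDM against PBS gave a log2FC of 0.45 (interval -0.37 to 1.28) in the parenchyma and of 2.25 ± 0.47 (adjusted p = 4.7e-05) in the airway.

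*Cxcl10* had an interaction in the parenchyma (-2.53 ± 0.66, adjusted p = 0.0010), and *Cxcr3* a smaller one (-0.70 ± 0.29, adjusted p = 0.044, but 0.083 without a filter on low counts and 0.058 with other libraries in the fit). That of *Cxcl9* was -2.11 with an interval from -3.95 to -0.28 (adjusted p = 0.064, and 0.047 without the 3 libraries that stood apart, 0.035 in edgeR and in DESeq2 and 0.026 with quality weights). Thus 1 member was called lower in the airway and 2 in the parenchyma, where 3.50% and 7.11% of genes were called lower. The interaction of *Ifng* was 0.06 ± 0.58 in the airway and -0.33 (-1.43 to 0.77) in the parenchyma. Macrophage markers had interactions of the same sign as *Acod1*, 1 of 8 called in the airway and 4 of 8 in the parenchyma, as had 5 and 6 of 7 neutrophil markers, and their part was not tested. Under smoke, HDM still raised 5 members in the airway (3.90% of genes called higher) and 3 in the parenchyma (2.71%), among them *Il12rb1* without overlap (log2FC 1.24 ± 0.20 and 1.49 ± 0.21) and *Ifng* (2.31 ± 0.44 and 1.83 ± 0.43).

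**Figure D3:**
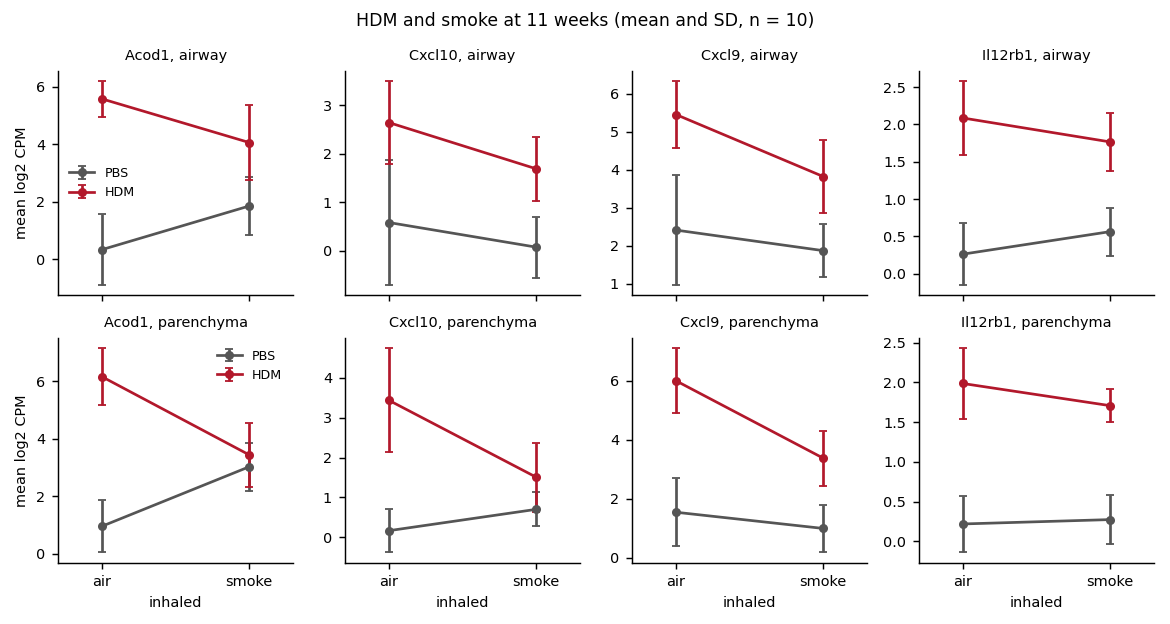
Mean log2 CPM with SD (n = 10 libraries a group) of *Acod1*, *Cxcl10*, *Cxcl9* and *Il12rb1* at 11 weeks, without dexamethasone, in air and in smoke, for PBS (grey) and HDM (red) mice. The *Acod1* lines in the parenchyma run in opposite directions, with an interaction of -4.85 log2 units, while the HDM means of *Il12rb1* stay above the PBS means in air and in smoke.

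Dexamethasone lowered members of the axis in every setting. Each of the 7 members had a negative log2FC in all 8 comparisons of dexamethasone with its own control, and *Cxcr3* and *Tbx21* passed the adjusted p in all 8. In HDM mice breathing air 5 of 7 members were called lower in each tissue by limma-voom, where 5.07% of genes were in the airway and 5.40% in the parenchyma. Fewer members were called in the airway by edgeR and by DESeq2.

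Under this treatment *Cxcl9* went from 19.1 to 129.3 CPM (median 38.7) to 1.27 to 121.5 CPM (median 9.89) in the airway (log2FC -2.23 ± 0.42, adjusted p = 9.2e-06), and from 19.8 to 186.7 CPM (median 54.5) to 1.42 to 154.6 CPM (median 9.16) in the parenchyma (log2FC -2.59 ± 0.43, adjusted p = 3.5e-07). The treated groups were scattered. A pair of libraries in each was high, X11 and X131 in the airway (121.5 and 70.5 CPM) and X12 and X132 in the parenchyma (154.6 and 96.8 CPM). X11 is the library whose profile resembled HDM.AIR. The airway control at 129.3 CPM was X109, the library that resembled parenchyma. Whether the neighbouring codes X11 and X12, or X131 and X132, mark one mouse is not given. In edgeR's quasi-likelihood test the airway log2FC of *Cxcl9* was -1.09 with an adjusted p of 0.11. *Acod1* had a log2FC of -2.03 ± 0.33 and -2.98 ± 0.36 (adjusted p = 2.3e-07 and 1.1e-11), from medians of 47.6 to 10.8 CPM and 68.9 to 8.86 CPM.

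The log2FC in airway and parenchyma was -1.67 ± 0.40 and -2.51 ± 0.40 for *Cxcl10*, -1.08 ± 0.17 and -1.24 ± 0.18 for *Cxcr3*, and -1.36 ± 0.34 and -1.34 ± 0.32 for *Ifng*. *Cxcl10* was high in the same treated libraries as *Cxcl9*. X11 and X131 had 11.7 and 11.5 CPM in the airway, and the next library 2.27 CPM. X12 and X132 had 15.8 and 9.70 CPM in the parenchyma, and the next library 2.69 CPM. The remaining genes, *Tbx21* (-0.99 ± 0.23 and -0.89 ± 0.23) and *Il12rb1* (-0.54 ± 0.17 and -0.80 ± 0.19), passed the adjusted p without reaching the 2-fold mark. *Il12b* fell too (-3.36 ± 0.39 and -2.91 ± 0.37), and 10 and 12 of 22 target genes were called lower. The receptor gene *Ifngr1* had a log2FC of 0.00 ± 0.06 and -0.02 ± 0.06.

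In the other settings the counts of members called lower were 4 in PBS.AIR, 3 in PBS.CS and 5 in HDM.CS mice, the same in both tissues. The shares of all genes called lower were 1.85%, 2.30% and 1.93% in the airway and 2.14%, 2.39% and 1.91% in the parenchyma. *Ifng* without HDM was near the limit of counting. In PBS.CS.DEX airway it had at most 4 counts in any library, and in PBS.CS airway between 1 and 17 (log2FC -1.71 ± 0.63, adjusted p = 0.059, and 0.029 without library X133). *Il12rb1* was called lower in HDM.CS mice, by -1.03 ± 0.19 for airway and -1.23 ± 0.21 for parenchyma on the log2 scale, and in the latter it and *Cxcr3* (-1.16 ± 0.23) did not overlap between groups.

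By limma-voom smoke changed the response to dexamethasone for 1 member in HDM mice, which neither edgeR nor DESeq2 called. The *Acod1* interaction in the parenchyma was 2.12 ± 0.57 (adjusted p = 0.012, and 0.075 in edgeR with a value of 1.59), where 1.23% of genes were called higher. In the airway no member was called, where 0.104% of genes were called higher and 0.0110% lower, and its interval for *Acod1* was -0.42 to 1.65. In HDM.CS parenchyma the median of *Acod1* was 12.0 CPM and with dexamethasone 6.33 CPM (log2FC -0.86 ± 0.45, adjusted p = 0.27).

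Lymphocyte markers fell beside the members in HDM mice breathing air, where the 8 T cell markers had 7 and 8 lower past the adjusted p, the 6 NK cell markers 6 and 6, and the 5 B cell markers 5 and 5. The NK cell sum in the parenchyma was 47.6 to 103.4 CPM without and 11.1 to 58.8 CPM with dexamethasone. The median sum of the lymph node stroma markers was 187.4 CPM without and 95.6 CPM with it in the airway. Of the 6 dendritic cell markers 3 and 4 were called lower, and of the 8 macrophage markers 0 in either tissue (1 and 4 lower past the adjusted p alone). The part of these cells in the fall of the members was not tested.

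**Figure D4:**
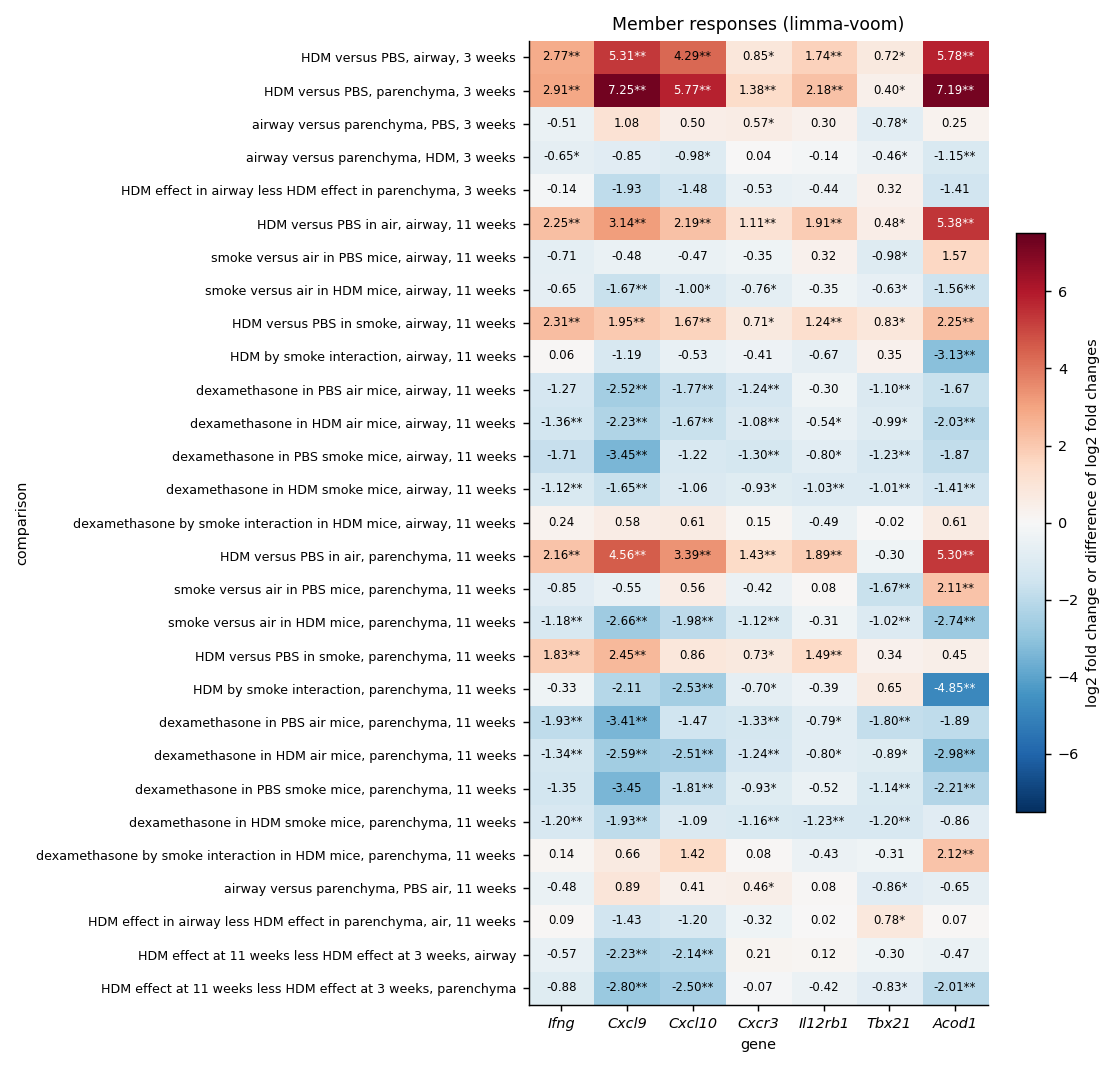
Log2 fold change, or difference of log2 fold changes, of the 7 members in the 29 comparisons, with ** for an adjusted p under 0.05 and a change of at least 2-fold, and * for the adjusted p alone. The HDM rows are red for most members, up to 7.25 for *Cxcl9*, and the rows of dexamethasone against its control are blue throughout.

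Across the 20 groups every member was highest in HDM parenchyma at 3 weeks, and most neighbours in the order of groups lay within their spread. Of the 19 steps between groups ordered by mean log2 CPM, those larger than the greater of the 2 SDs numbered 4 for *Cxcl10*, 3 for *Acod1*, 2 for *Cxcl9*, 1 each for *Cxcr3* and *Tbx21* and 0 for *Ifng* and *Il12rb1*. The ratio of the highest to the lowest group median was 1698 for *Cxcl9*, 923 for *Acod1*, 182.2 for *Cxcl10*, 14.0 for *Tbx21*, 9.08 for *Cxcr3* and 8.58 for *Il12rb1*. No ratio is given for *Ifng*, whose lowest group had at most 4 counts in any library. Per kilobase of exon, in HDM parenchyma at 3 weeks, *Cxcl9* had a median level of 130.8 CPM, *Acod1* 114.1, *Cxcl10* 28.6, *Ifng* 5.04, *Cxcr3* 4.91, *Tbx21* 3.15 and *Il12rb1* 1.49.

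The genes most like each member differed between them. Over the 20 group means, *Cxcl9* was closest to *Gm4841*, *Nlrc5* and *Slfn8* (Pearson's r = 0.993, 0.985 and 0.983), *Cxcl10* to *Trex1*, *Oasl1* and *Il18bp* (0.989, 0.986 and 0.982), and *Ifng* to *Psmb9*, *H2-M3* and *Psmb8* (0.985, 0.982 and 0.982). *Tbx21* was closest to *Klrc2*, *Fasl* and *Nkg7* (0.988, 0.983 and 0.982), *Cxcr3* to *Itgb7*, *BC035044* and *H2-Oa* (0.986, 0.983 and 0.980), *Il12rb1* to *Gpr65*, *Cxcr6* and *Podnl1* (0.984, 0.980 and 0.978), and *Acod1* to *Ccdc88b*, *Slc2a6* and *Fermt3* (0.995, 0.986 and 0.986). These points share exposures and libraries, so r describes a common pattern only.

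Within groups, over all libraries of both weeks after subtracting each group mean, *Cxcl9* was closest to *Ubd*, *Calhm6* and *Cxcl10* (r = 0.805, 0.800 and 0.772) and *Cxcl10* to *Zbp1* and *Cxcl9* (0.776 and 0.772). *Ifng* was closest to *Tap1* and *Iigp1* (0.732 and 0.720), *Cxcr3* to *Gimap7*, *Thy1* and *Cd4* (0.750, 0.745 and 0.744), and *Tbx21* to the NK and cytotoxic cell genes *Klrk1*, *Nkg7* and *Prf1* (0.774, 0.770 and 0.761). *Il12rb1* was closest to *Cxcr6*, *Podnl1* and *Tap1* (0.650, 0.640 and 0.622) and *Acod1* to the myeloid genes *Clec4e*, *Ptafr* and *Gpr84* (0.819, 0.735 and 0.734). Among members, r ran from 0.77 for *Cxcl9* and *Cxcl10* to 0.13 for *Tbx21* and *Acod1*.

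**Figure D5:**
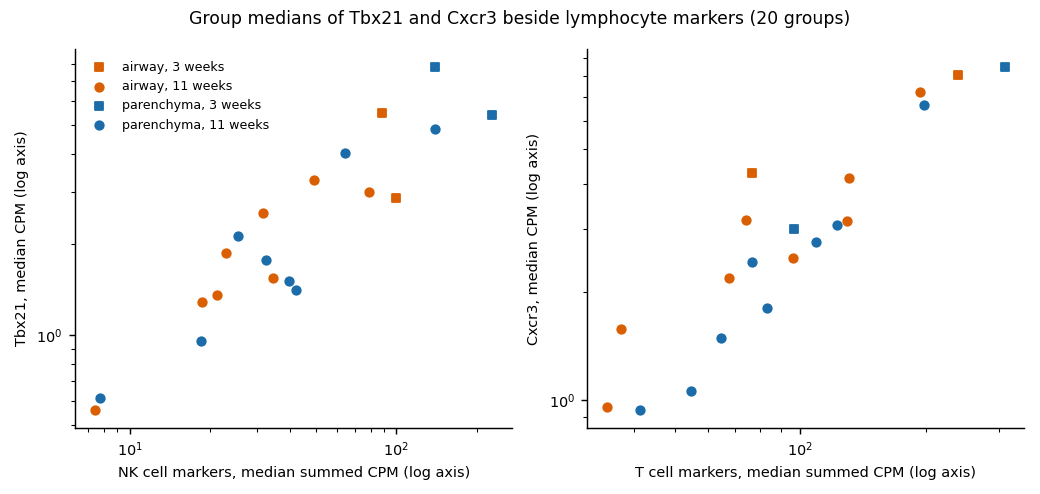
Group medians (20 groups, both axes log) of *Tbx21* CPM against the summed CPM of 6 NK cell markers, and of *Cxcr3* CPM against that of 8 T cell markers, airway in orange, parenchyma in blue, squares at 3 and circles at 11 weeks. The lowest *Tbx21* medians, 0.560 and 0.615 CPM, lie in the PBS.CS.DEX groups, which also have the lowest NK cell sums, 7.43 and 7.76 CPM.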

How the data were processed

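RNA-seq libraries of airway and parenchyma were grouped by the week, tissue and exposure in their labels, giving 20 groups. The gene-level estimated counts of the whole series were deposited by the authors in a single table, in which 20.3% of values above 0 were not whole. Per the labels' processing notes, STAR 2.5.1b, RSEM 1.2.31, kallisto 0.44.0 and the build mm10 were used, and which tool gave the table is not given in the sources used here. Reads that fit several genes are shared by estimation in such values, which can blur close paralogs. All columns matched a sample, and 0 were left without one. Of 43346 identifiers 42462 matched a GENCODE M21 symbol (23106 in the same version).

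Estimated counts were rounded, scaled by TMM and tested by limma-voom (R 4.3.3, limma 3.58.1, edgeR 4.0.16) on genes that reached, in 9 or more libraries, the CPM that 10 counts make in a library of median size, with separate fits of the 43 libraries at 3 weeks, the 160 at 11 weeks and both weeks together for contrasts between weeks. A gene was called at a Benjamini-Hochberg adjusted p of 0.05 over all genes tested and a log2 fold change of at least 1. Log2 CPM used a prior count of 2. Total counts per library ranged from 13003154 to 40240733, so a level of 1 count lay well under the medians of the ligands in HDM mice but near those of Ifng in treated PBS mice. On simulated counts with 200 changed genes, recovery was counted past the adjusted p alone, without the 2-fold mark. Of genes changed by a log2 fold change of 2 in either direction, limma-voom recovered 98.1% for HDM in the airway at 3 weeks (17381 genes). It recovered 95.1% for HDM in the parenchyma at 11 weeks (18250 genes). Far more genes changed in the data, with 5925 higher past the adjusted p in the first of these comparisons.

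The labels say that the libraries are separate samples of a group, without a map from airway to parenchyma of one mouse, and they name no batch. Genes named beside the 7 members came from fixed lists of pathway genes and cell markers, and genes alike in pattern were the 3 with the highest Pearson's r, of which 1 gene is not reported here. The members and the lists were chosen with earlier results of these data known. Also tried were DESeq2 1.42.0, edgeR's quasi-likelihood test, other size factors, filters and weights, other libraries in the fit, and leaving out the 3 libraries that stood apart, the last chosen after seeing the data. Promoter sequences are RefSeq's, on GRCm38.p6.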

Additional observations from a re-analysis of the deposited data

Results flagged for a closer look

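The highest and the lowest library were tested for each of the 7 members in each of the 18 groups of 10 libraries, and 4 passed Dixon's 95% critical value, where chance flags about 1 in 20. For *Cxcl10*, library X57 of HDM.CS airway was low at 0.982 CPM against 2.44 for the next (gap over range 0.565), X39 of HDM.CS.DEX airway was high at 7.51 against 2.39 CPM (0.529), and X116 of PBS.CS.DEX parenchyma was high at 1.60 against 0.552 CPM (0.525). For *Ifng*, X199 of HDM.CS.DEX airway was low at 0.214 against 0.402 CPM (0.471).

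Of 56 tested differences between effects, 12 passed the adjusted p of limma-voom. The interaction of HDM and smoke was -3.13 log2 units for *Acod1* in the airway, and in the parenchyma -4.85 for *Acod1*, -2.53 for *Cxcl10* and -0.70 for *Cxcr3*. That of dexamethasone and smoke in HDM mice was 2.12 for *Acod1* in the parenchyma. The HDM effect in air at 11 weeks differed between airway and parenchyma by 0.78 for *Tbx21*. The HDM effect at 11 weeks less that at 3 weeks was -2.23 for *Cxcl9* and -2.14 for *Cxcl10* in the airway, and in the parenchyma -2.80 for *Cxcl9*, -2.50 for *Cxcl10*, -0.83 for *Tbx21* and -2.01 for *Acod1*.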

How the results depend on the processing

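The 7 members in 29 comparisons gave 1977 values under the alternatives. Of these, 1831 kept the direction and the side of the adjusted p, 65 lost the threshold, 51 gained it and 30 changed sign. No paired analysis was possible because the labels give no number that ties the airway and parenchyma of one mouse or libraries of different groups. Whether neighbouring library codes mark one mouse is not given, so contrasts between tissues treat all libraries as independent. Depth limits *Ifng* most, with at most 4 counts in any PBS.CS.DEX airway library. The cause of the changes below was not tested, apart from the CPM filter, which tests fewer members.

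With genes kept only at a CPM of at least 10 in 9 libraries, *Cxcl9*, *Cxcl10* and *Acod1* were the only members tested. The members called were then 3 in each of HDM at 3 weeks (airway 5 and parenchyma 6 before) and HDM in air at 11 weeks (6 and 6). They were also 3 for dexamethasone in HDM air mice (5 and 5), smoke in HDM parenchyma (6) and HDM under smoke in the airway (5). They were 2 for airway against parenchyma in HDM mice at 3 weeks (1), 1 for dexamethasone in HDM smoke airway (5) and for the airway difference between weeks (2), and 0 for HDM by smoke in the airway (1), dexamethasone in PBS air (4 and 4) and PBS smoke mice (3 and 3), dexamethasone in HDM smoke parenchyma (5), smoke in PBS parenchyma (2), HDM under smoke in the parenchyma (3) and the parenchyma difference between weeks (3).

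By edgeR and DESeq2 alike, the calls were 3 in place of 0 for the tissue difference of HDM at 3 weeks, 1 in place of 0 for that at 11 weeks, for the tissues of PBS mice at 3 weeks (*Cxcl9*) and for smoke in PBS airway, 3 in place of 5 for dexamethasone in HDM air airway, 5 in place of 3 in PBS smoke airway, and 0 in place of 1 for dexamethasone by smoke in the parenchyma. edgeR alone gave 0 for the tissues of HDM mice at 3 weeks, where DESeq2 size factors, quality weights and the fit with other libraries gave 2. DESeq2 alone gave 1 for the tissues of PBS air mice at 11 weeks, and DESeq2 and quality weights gave 5 for dexamethasone in PBS smoke parenchyma. Quality weights gave 2 for dexamethasone in PBS air airway. For dexamethasone in HDM smoke mice, no filter gave 2 and 3 (airway and parenchyma), and other libraries 3 and 3.

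Sign changes had adjusted p-values well over 0.05 on both sides. By edgeR and DESeq2 they were -0.45 and -0.43 for *Ifng* in HDM by smoke in the airway (-0.13 without X133), -0.56 in both for *Cxcl9* and 0.04 and 0.05 for *Tbx21* in dexamethasone by smoke in the airway (0.08 for *Tbx21* without X11 and 0.01 without all 3 libraries), -0.72 and -0.69 for *Cxcl9* and -0.10 and -0.07 for *Ifng* in the parenchyma, and -0.37 and -0.41 for *Acod1* in the tissue difference of HDM at 11 weeks. With quality weights they were -0.13 (*Cxcl9*), -0.26 (*Ifng*) and -0.01 (*Acod1*) in dexamethasone by smoke in the airway, -0.03 (*Ifng*) in the parenchyma, -0.08 (*Ifng*) and -0.04 (*Il12rb1*) in the tissue difference at 11 weeks, and -0.09 (*Il12rb1*) between weeks in the airway. Without X109 the tissue difference at 11 weeks was -0.16 (*Ifng*), -0.08 (*Il12rb1*) and -0.01 (*Acod1*), the same without all 3, and *Ifng* in dexamethasone by smoke in the airway was -0.01. With other libraries *Cxcr3* between tissues of HDM mice at 3 weeks was -0.01.

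Without X133, *Cxcl10* under dexamethasone in PBS air airway had an adjusted p of 0.05 at the same log2FC of -1.77, and *Ifng* in PBS smoke airway a log2FC of -1.90.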
